A study of Mus musculus with 4 samples.

Results

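The Mef2 genes encode the MEF2 transcription factors, and this account describes all 4 of them, Mef2a, Mef2b, Mef2c and Mef2d, out of 32285 genes listed in the deposited count matrices. They were picked by gene name, as a family, with earlier results of these data known. MEF2 proteins carry a MADS box, a DNA-binding domain with which they bind A/T-rich sites as dimers, and in skeletal muscle they act beside the MyoD family of bHLH factors (MyoD, myogenin and relatives) on genes of fusion and of the contractile apparatus. Class IIa histone deacetylases hold MEF2 proteins inactive, and calcium-dependent kinases relieve that block. The p38 MAP kinases also act on MEF2 proteins. Mef2b is best known from B cells, and the other 3 members from muscle, heart and brain.

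The cells were skeletal muscle stem cells of MyoD-KI mice that were grown for 5 days in a serum-containing growth medium and sorted for high MyoD-tdTomato, a red fluorescent reporter of MyoD. Every cell described here carried the knock-in, no other genotype was compared, and the labels do not say how many animals were used or where in the gene the reporter sits. Libraries of the 3′ ends of polyadenylated RNA were read from single cells in droplets, with a unique molecular identifier (UMI) on each captured molecule. The sample labels give 4 replicates of 1 group.

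The 4 libraries held the same cells. Any pair of files shared 5946 to 5965 barcodes, at least 99.88% of the smaller file. Profiles were compared for the cells kept below, not for the barcodes left out. In every pair at least 99.7% of kept cells were more like themselves in the other file than like any of 100 other kept cells. They were therefore counted as 1 sample read 4 times (n = 1): there is no biological replicate, no test between conditions is given, and the spread between files is technical. Total UMIs per file were 68391013, 68898900, 67157284 and 62627341. Of 5944 barcodes present in all 4 files, 5481 cells with a mean of at least 1000 genes and under 10% mitochondrial UMIs were kept, with a median of 11049 UMIs per file. All 6 muscle markers examined were at or above 1 CPM (counts per 1000000 UMIs), and the 5 endothelial and 5 immune markers were below it. The defining smooth muscle gene Myh11 and the fibroblast genes Pdgfra, Dcn and Lum were below it too, although Acta2, Rgs5 and Cspg4 of the smooth muscle or pericyte list and Col3a1 and Ly6a of the fibroblast list were not. The smooth muscle or pericyte list summed to between 431 CPM (stage 2) and 3182 CPM (stage 10), led by Acta2, and the fibroblast list to between 24.9 CPM (stage 10) and 256 CPM (stage 1) on the path described next, and their part in the Mef2 levels was not tested.

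Levels are summed UMIs of a gene per 1000000 summed UMIs (CPM), as the mean of the 4 files with an exact 95% Poisson interval at the mean count of 1 file. Intervals cover counting error only. Since 1 UMI stands for the 3′ end of 1 molecule, levels are not divided by gene length, and capture may still differ between genes. Cells were ordered by 2 measures from their own RNA: Myog, which encodes myogenin and marks commitment to differentiation, and the sum of Acta1 (skeletal alpha-actin) and Myh3 (embryonic myosin heavy chain), which build the sarcomere. A path of 10 stages joins them. Stages 1 to 6 hold cells with Acta1+Myh3 under 300 CPM and Myog at 0, above 0, from 100, from 300, from 1000 and from 3000 CPM. Stages 7 to 10 hold cells with Myog of at least 1000 CPM and Acta1+Myh3 from 300, from 1000, from 3000 and from 10000 CPM. The path took in 5276 of the 5481 kept cells. Stages are ranks of expression in cells collected at the same moment, not measured times.

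Mef2a, at chromosome 7, 67231163 to 67372858 on the minus strand (mouse GRCm38, GENCODE M21), was the most abundant member over all kept cells at 651 CPM (645 to 658). Mef2c, at chromosome 13, 83504034 to 83667080 on the plus strand, followed at 386 CPM (381 to 391). Mef2d, at chromosome 3, 88142372 to 88172086 on the plus strand, stood at 58.8 CPM (57.0 to 60.7). Mef2b, at chromosome 8, 70139711 to 70167488 on the plus strand, stood at 5.34 CPM (4.80 to 5.93), about 0.0643 UMIs per cell and file. The intervals of the 4 genes did not overlap. A cell with a Mef2a UMI in 1 file had one in another file in 92.9% of cases, against 81.3% for Mef2c, 59.9% for Mef2d and 17.8% for Mef2b.

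The start sites of the 3 members that differed along the path are shown because they differ in whether motifs for MEF2 or MyoD-family factors lie near them. Windows run from 250 bases before to 50 bases after each start in the RefSeq table (GRCm38.p6), in which all 4 members matched by symbol, and both strands were searched. The E-box CANNTG, the core bound by MyoD and myogenin, was in 72.3% of all 32851 windows. Its form CAGCTG was in 16.3% of all windows and in no window of a Mef2 gene. The MEF2 consensus was in 3.19% of all windows, and its exact form TAAAAATAG, which lies inside the consensus, in 0.493%. The Mef2a window holds 1 MEF2 consensus match, at bases -2 to 8 counted from the start with no base 0, and no E-box. Mef2c has 3 listed starts: the window of start 1 holds 2 E-boxes, that of start 3 holds 1, and that of start 2 holds neither motif. The Mef2d window holds neither motif. Below, the 30 bases around the Mef2a site (chr7:67372841-67372870, minus strand) and the 250 bases before Mef2c start 1 (chr13:83503784-83504033, plus strand), Mef2c start 3 (chr13:83573357-83573606, plus strand) and the Mef2d start (chr3:88142122-88142371, plus strand) are written 5′ to 3′, with the MEF2 match or E-boxes in capitals.
Mef2a site: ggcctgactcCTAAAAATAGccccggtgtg
Mef2c start 1: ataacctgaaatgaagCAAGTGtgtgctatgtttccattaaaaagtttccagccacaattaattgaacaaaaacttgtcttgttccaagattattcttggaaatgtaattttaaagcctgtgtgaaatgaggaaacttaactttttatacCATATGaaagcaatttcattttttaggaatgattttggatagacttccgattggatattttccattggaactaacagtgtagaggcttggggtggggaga
Mef2c start 3: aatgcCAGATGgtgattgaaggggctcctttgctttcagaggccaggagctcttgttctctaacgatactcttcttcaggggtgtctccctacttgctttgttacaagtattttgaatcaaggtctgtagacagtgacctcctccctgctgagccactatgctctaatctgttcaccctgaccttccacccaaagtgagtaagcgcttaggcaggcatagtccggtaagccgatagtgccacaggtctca
Mef2d start: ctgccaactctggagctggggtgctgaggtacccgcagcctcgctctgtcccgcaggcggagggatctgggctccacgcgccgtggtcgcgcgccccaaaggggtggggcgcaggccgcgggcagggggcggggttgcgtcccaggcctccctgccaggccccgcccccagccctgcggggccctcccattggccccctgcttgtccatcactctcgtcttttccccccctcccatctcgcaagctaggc
The Mef2b window (RefSeq start at base 70152761 of chromosome 8) holds 2 E-boxes, CATCTG and CAGGTG. A match is a description of the letters and not evidence of binding. Counts of 3′ ends do not tell which of the Mef2c starts was in use.

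Mef2a, Mef2c and Mef2d were all higher in cells with more Myog, and Mef2b was level. From cells with no Myog UMI (361 cells) to the bin of 3000 to under 6000 CPM of Myog (1228 cells), Mef2a went from 249 to 1203 CPM, Mef2c from 19.9 to 955 CPM and Mef2d from 30.9 to 92.3 CPM. Mef2a passed 300 CPM at a Myog of 100 to under 300 CPM, where it stood at 316 CPM. Mef2c there was at 35.7 CPM, and reached 111 CPM in the next bin and 558 CPM in the bin from 1000 CPM. In the bin of at least 6000 CPM of Myog (334 cells) Mef2a was at 1086 CPM, Mef2c at 850 CPM and Mef2d at 88.6 CPM, so the first 2 were below the bin before it. Mef2b ran between 4.83 and 7.06 CPM over the 7 bins, and all of its intervals overlapped.

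Ordered by Acta1+Myh3 instead, Mef2c was higher in every next bin, while Mef2a and Mef2d were highest in the bin before the last. Mef2c stood at 20.6, 29.4, 98.5, 290.0, 942 and 1804 CPM in the 6 bins from under 100 CPM to at least 10000 CPM of Acta1+Myh3. Mef2a stood at 283, 354, 742, 1023, 1328 and 922 CPM in the same bins. Mef2d stood at 34.5, 40.9, 63.8, 77.9, 101 and 83.9 CPM. For these 3 genes no interval overlapped that of the next bin. In the last bin Mef2c was above Mef2a, the reverse of all bins before it. The plot of levels by Myog and by Acta1+Myh3 shows both orders.

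**Figure D1:**
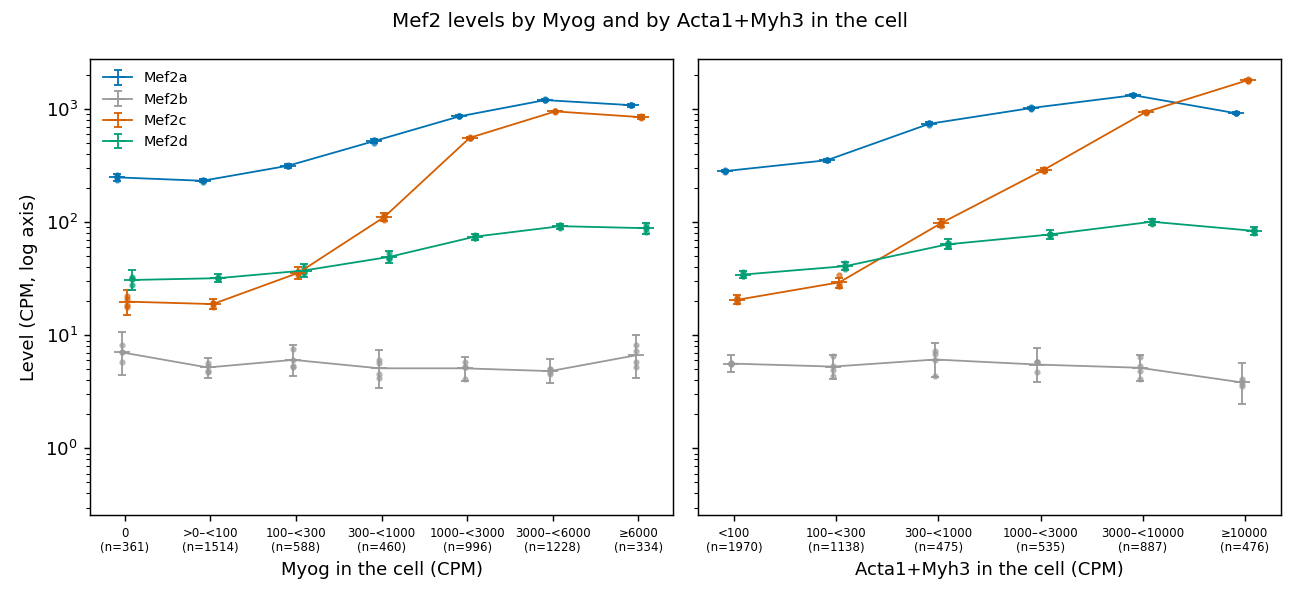
Levels of the 4 Mef2 genes (CPM, log axis) by the cell's Myog (left) and Acta1+Myh3 (right); lines join means of the 4 files, dots are single files, bars are 95% Poisson intervals and n is the number of cells. Mef2c crosses Mef2d in both orders and ends above Mef2a in the last Acta1+Myh3 bin (1804 against 922 CPM), and Mef2b stays near 5.34 CPM.

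To see which members differed before the sarcomere genes did, 390 cells with Myog of at least 1000 CPM were set against the 357 cells of stage 1, all with Acta1+Myh3 under 300 CPM. Mef2a stood at 252, 259, 248 and 235 CPM in the 4 files without Myog and at 616, 605, 627 and 629 CPM with it. The 2 sets of files did not overlap, and Mef2a was 2.49-fold higher, a log2 ratio of 1.32 (exact conditional binomial 95% interval 1.20 to 1.43). Mef2c stood at 18.8, 20.2, 17.3 and 21.9 CPM without Myog and at 47.0, 44.1, 43.3 and 54.9 CPM with it. These did not overlap either, at much lower levels, and Mef2c was 2.42-fold higher, a log2 ratio of 1.27 (0.85 to 1.71). Mef2d stood at 32.3, 31.8, 27.5 and 31.2 CPM without Myog and at 60.5, 57.7, 64.3 and 55.7 CPM with it, 1.94-fold higher, a log2 ratio of 0.96 (0.61 to 1.31). All files of Mef2d were higher with Myog, but not all by 2-fold. Mef2b stood at 7.05 and 5.74 CPM, with a log2 ratio of -0.29 and an interval that includes 0 (-1.20 to 0.61).

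A gene was called when it differed at least 2-fold in each of the 4 files, among genes with at least 50 counts over both sides in every file. By this rule 2 of the 3 members with enough counts, Mef2a and Mef2c, were higher with Myog, where 3.57% of 8794 genes were higher and 4.29% lower. The median log2 ratio of all those genes was -0.04. Cells with Myog were less often Pax7-positive (38.2% against 84.3%) and about as often cycling (49.2% against 51.0% with Mki67+Top2a of at least 100 CPM). Leaving cycling cells out gave Mef2c a log2 ratio of 1.73. With the sarcomere limit at 100 CPM instead of 300 CPM the Mef2c ratio was 0.85, which is under 2-fold, and the Mef2a ratio was 1.18. With Myog of at least 3000 CPM the Mef2c ratio was 2.0.

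At high Myog, Mef2c differed far more across the sarcomere genes than the other members did. The 464 cells of stage 10 were set against the same 390 cells, so this comparison shares a group with the one before. Mef2c stood at 47.0, 44.1, 43.3 and 54.9 CPM at low Acta1+Myh3 and at 1826, 1794, 1841 and 1788 CPM at stage 10. The files were far apart, and Mef2c was 38.4-fold higher, a log2 ratio of 5.26 (5.06 to 5.47). Mef2a stood at 616, 605, 627 and 629 CPM and at 936, 939, 937 and 935 CPM, a log2 ratio of 0.60 (0.53 to 0.67). Mef2d stood at 60.5, 57.7, 64.3 and 55.7 CPM and at 83.0, 85.9, 87.6 and 80.6 CPM, a log2 ratio of 0.50 (0.28 to 0.73). All files of Mef2a and Mef2d were higher at stage 10 by less than 2-fold. Mef2b stood at 5.74 and 3.92 CPM, with an interval of the log2 ratio that includes 0 (-1.43 to 0.33).

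Mef2c was thus called and Mef2a and Mef2d were not, where 7.12% of 8981 genes were called higher and 16.1% lower. The median log2 ratio of all genes was -0.43 in this comparison. Scaling by TMM factors moved that median by 0.47, and median-ratio size factors moved it by 0.48. With TMM factors the log2 ratios were 5.73 for Mef2c, 1.07 for Mef2a and 0.97 for Mef2d, so all 3 kept their direction and Mef2a came to stand above 2-fold. In non-cycling cells the ratios were 4.77 for Mef2c, 0.25 for Mef2a and 0.26 for Mef2d. Cycling cells made up 49.2% of the low and 1.94% of the high group. With Myog of at least 3000 CPM in both groups the Mef2c ratio was 4.51. The cause of these moves was not tested.

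Along the path, Mef2a and Mef2d reached 50% of their rise from stage 1 to the highest stage before Mef2c did. This order is of shares of each gene's own rise, not of the stage at which a gene first differed from stage 1. Mef2a stood at 248, 228, 303, 419, 574 and 808 CPM in stages 1 to 6 and at 815, 1049, 1332 and 937 CPM in stages 7 to 10. It first stood clear of stage 1 at stage 3, where Myog was 100 to under 300 CPM, and was highest at stage 9, 5.36-fold above stage 1. Mef2d stood at 30.7, 32.0, 35.2, 42.9, 56.0 and 74.2 CPM in stages 1 to 6 and at 69.7, 78.9, 101 and 84.3 CPM in stages 7 to 10. It was also highest at stage 9, 3.29-fold above stage 1, and first stood clear at stage 5. Mef2c stood at 19.6, 18.6, 23.8, 26.7, 39.8 and 79.0 CPM in stages 1 to 6 and at 109, 305, 948 and 1812 CPM in stages 7 to 10. It first stood clear at stage 5 as well and was highest at stage 10, 92.6-fold above stage 1. Mef2c and Mef2d have fewer counts than Mef2a in the first stages (60.8 and 95.5 against 774 per file in stage 1), so a small difference shows later in them. Intervals of neighbouring stages overlapped for Mef2a at stages 1 and 2 and at stages 6 and 7. They overlapped for Mef2c at each pair from stage 1 to 4 and at stages 6 and 7, and for Mef2d at each pair up to stages 7 and 8.

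The timing was put in 1 value per gene, the percent of the rise from stage 1 to the highest stage that was already there at stage 6, the last stage with little Acta1 and Myh3. It was 51.6% for Mef2a (45.9% to 57.6%), with single files from 47.8% to 55.4%. It was 61.8% for Mef2d (36.6% to 92.2%), with single files from 49.6% to 74.5%. It was 3.32% for Mef2c (2.27% to 4.52%), with single files from 2.67% to 4.64%. The Mef2a and Mef2d intervals overlapped, and both lay far above that of Mef2c in every file. Mef2a and Mef2d passed 50% of their rise at stage 6 (single files at stages 6 to 8 and 6 to 7), and Mef2c at stage 9 in all 4 files. Stage 6 has 96 cells, and these intervals vary its count alone. The stage 1 and highest levels were held fixed, so the intervals leave out part of the counting error.

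The values can be set beside those of genes that mark known steps of muscle differentiation. Tnnt1, slow troponin T, had 57.5% of its rise by stage 6. Mymx and Mymk, which encode the fusion proteins myomixer and myomaker, had 40.8% and 37.1%, and Cdkn1a, the cell-cycle inhibitor, had 40.0%. Ttn, the giant sarcomere protein titin, had 28.8% and Actc1, cardiac alpha-actin, 20.4%. Mef2c, at 3.32%, sat between the intermediate filament gene Des (6.09%) or the fast myosin light chain gene Mylpf (9.25%) and the creatine kinase gene Ckm (0.56%). The intervals of Des (1.76% to 10.7%) and Ckm (-0.42% to 3.32%) overlapped that of Mef2c, and that of Mylpf (8.63% to 9.89%) did not. Ckm passed 50% of its rise at stage 10, a stage after Mef2c. Acta1 (0.42%) and Myh3 (0.60%) define the path and are low by construction. Of 12821 genes with enough counts on the path, 14.4% were at least 2-fold higher at their highest stage than at stage 1, and 3 of the 4 members were among them. Over those 1848 genes the median percent was 38.0% (quartiles 5.16% and 83.9%), and 51.7% had passed 50% of their rise by stage 6, so Mef2a and Mef2d lay near the middle of all such genes. Of the same genes 49.4% were highest at stage 10 against 14.4% at stage 9.

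**Figure D2:**
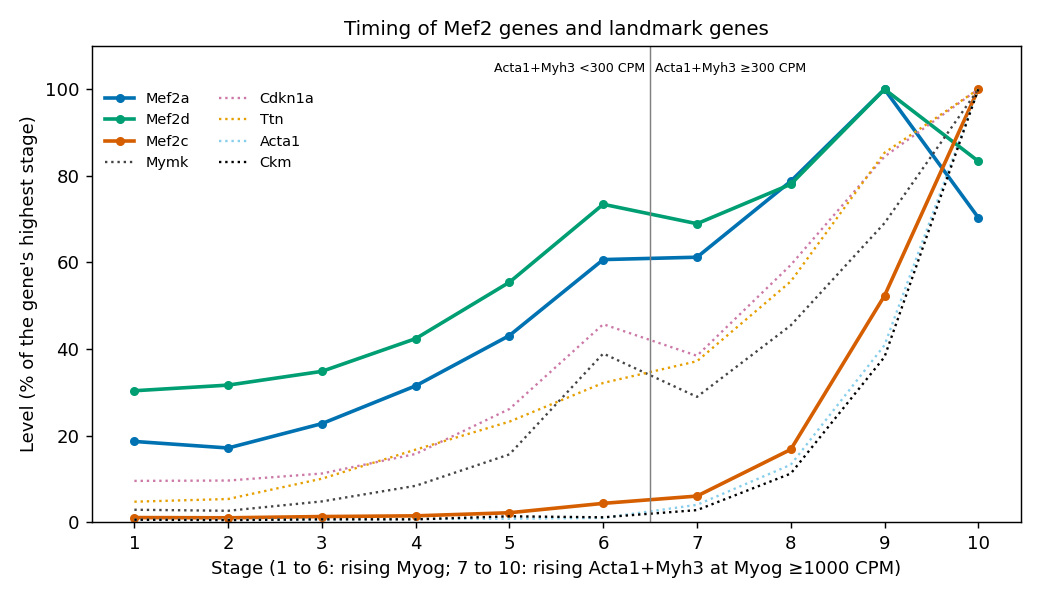
Level of each gene as a percent of its highest stage (vertical axis) over the 10 stages of the path (horizontal axis); solid lines with points are Mef2 genes, dotted lines landmark genes, and the grey line parts the stages below and above 300 CPM of Acta1+Myh3. Mef2a and Mef2d lead and are highest at stage 9, and Mef2c runs just ahead of Acta1 and Ckm to its highest value at stage 10.

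A ranking without fixed limits gave the same order. Cells were ranked by the sum of their Myog and Acta1+Myh3 CPM, and the ranking was split into 10 bins of about 548 cells. In cells with much Acta1+Myh3 this sum mostly follows Acta1+Myh3. Mef2a and Mef2d passed 50% of their rise in bin 7 and Mef2c in bin 9. Highest bins were 9 for Mef2a and Mef2d and 10 for Mef2c. The 205 cells off the path, with Myog under 1000 CPM and Acta1+Myh3 of at least 300 CPM, gave another view. The 142 of them with Acta1+Myh3 under 1000 CPM had 577 CPM of Mef2a (542 to 614) and 73.8 CPM of Mef2c (61.5 to 87.6), against 815 and 109 CPM in stage 7. The 25 cells with Acta1+Myh3 of at least 3000 CPM had 1086 CPM of Mef2c and 797 CPM of Mef2a, and are too few to compare.

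With both axes at once, Mef2a differed along Myog as well as along Acta1+Myh3, and Mef2c differed most along Acta1+Myh3. At Acta1+Myh3 under 100 CPM, Mef2a was 227 CPM at Myog under 100 CPM, 320 and 394 CPM in the next 2 Myog bins and 539 CPM at Myog of 1000 to under 3000 CPM. Mef2c over the same 4 groups was 18.2, 22.4, 23.0 and 34.8 CPM. At Myog of 1000 to under 3000 CPM, Mef2c went from 34.8 CPM to 1893 CPM over the 6 Acta1+Myh3 bins, and Mef2a from 539 to 1255 CPM and then to 743 CPM. At Acta1+Myh3 of at least 10000 CPM, Mef2c was 1893, 1902 and 1270 CPM over the Myog bins from 1000, from 3000 and from 6000 CPM. The last of these, in 76 cells, was clear of the other 2. The grid of both axes shows these values.

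**Figure D3:**
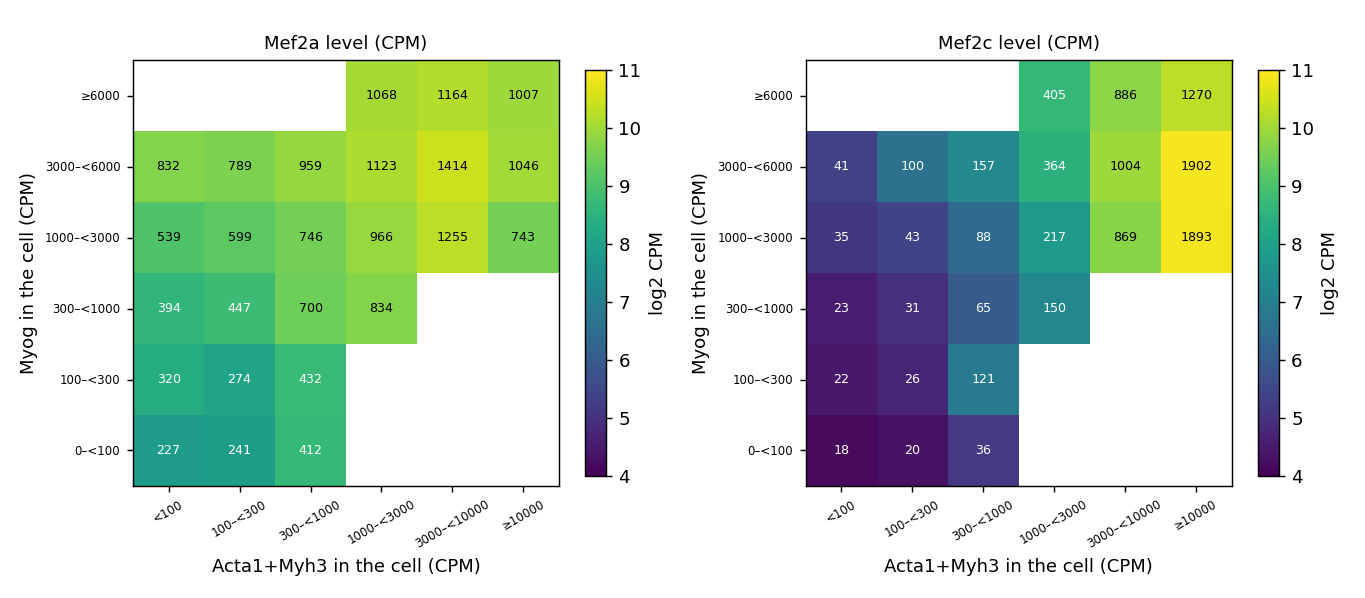
Levels of Mef2a (left) and Mef2c (right) in CPM, printed and coloured on a log2 scale, by the cell's Acta1+Myh3 (horizontal) and Myog (vertical); groups under 20 cells are blank. Mef2a differs along both axes and is lower in the last column than in the one before, and Mef2c differs mainly from left to right, from 18.2 CPM to 1902 CPM.

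The end of the path set the members apart. This comparison of stage 10 with the 874 cells of stage 9 was added after the lower Mef2a level there was seen, and describes it. Mef2a stood at 1349, 1326, 1327 and 1324 CPM at stage 9 and at 936, 939, 937 and 935 CPM at stage 10. Every file was lower at stage 10, with a log2 ratio of -0.51 (-0.55 to -0.46). Mef2d stood at 97.7, 103, 99.1 and 105 CPM at stage 9 and at 83.0, 85.9, 87.6 and 80.6 CPM at stage 10, a log2 ratio of -0.26 (-0.41 to -0.11). Mef2c stood at 954, 953, 948 and 937 CPM at stage 9 and at 1826, 1794, 1841 and 1788 CPM at stage 10, a log2 ratio of 0.93 (0.90 to 0.97). No member passed 2-fold in every file here, where 1.81% of 9792 genes were called higher and 3.02% lower.

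The median log2 ratio of all genes between those stages was -0.22. TMM factors moved it by 0.18 and gave -0.32 for Mef2a, -0.08 for Mef2d and 1.12 for Mef2c, so the lower Mef2d level is close to what most genes did. Within stage 10 the same direction went on for Mef2a. The 386 cells with Acta1+Myh3 under 20000 CPM had 1010.3 CPM of Mef2a (983 to 1038), and the 78 cells above that had 585 CPM (540.2 to 633), a log2 ratio to stage 9 of -1.19. Mef2c was 1782 CPM (1746 to 1819) and 1957 CPM (1875 to 2044) in those cells, and Mef2d 88.0 CPM (80.1 to 96.7) and 66.3 CPM (51.7 to 83.7). The Mef2d intervals overlapped and the others did not.

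The make-up of the family's UMIs turned over along the path. Mef2a was 81.3% of all Mef2 UMIs at stage 1 (exact Clopper-Pearson 95% interval 78.7% to 83.7%) and still 83.3% at stage 6. It was 72.9% at stage 8, 55.8% at stage 9 and 33.0% at stage 10 (32.3% to 33.7%). Mef2c was 6.41% at stage 1 (4.91% to 8.12%), 8.10% at stage 6, 21.2% at stage 8, 39.7% at stage 9 and 63.9% at stage 10 (63.2% to 64.6%). Mef2d went from 10.0% to 2.97% and Mef2b from 2.30% to 0.138%, although the Mef2d level itself was higher at the end. The 4 members summed to 306 CPM at stage 1, 970.1 CPM at stage 6 and 2837 CPM at stage 10.

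The same turnover was seen cell by cell at equal depth. Each of 5197 cells was thinned to 5000 UMIs per file, and 284 shallower cells were left out, 59 of them from stage 1 and 10 from stage 10. A Mef2a UMI was then found in 59.1% of stage 1 cells (53.2% to 64.7%), 87.4% of stage 6 cells, 96.9% of stage 9 cells and 90.3% of stage 10 cells (87.1% to 92.8%). A Mef2c UMI was found in 7.97% of stage 1 cells (5.16% to 11.6%), 19.8% of stage 6 cells, 84.6% of stage 9 cells and 98.4% of stage 10 cells (96.8% to 99.3%). For Mef2d these shares were 13.6%, 29.6%, 37.5% and 32.3%, and for Mef2b they lay between 2.26% and 5.46% at all stages. Without thinning, the stage 1 and stage 10 shares were 70.2% and 96.8% for Mef2a and 13% and 99.3% for Mef2c. No cell type lacking these genes was in the sort, so the share that free RNA gives was not measured.

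Both genes were mostly found in the same late cells. A UMI of each of Mef2a and Mef2c was in 5.03% of thinned cells at stage 1 and in 88.8% at stage 10. Cells with more Mef2c than Mef2a UMIs made up 3.27% at stage 1, 8.77% at stage 8, 30.8% at stage 9 and 74.6% at stage 10. Among stage 9 cells the middle 50% ranged from 300 to 1307 CPM of Mef2c (median 768 CPM) and from 770 to 1705 CPM of Mef2a (median 1162 CPM). At stage 10 the medians were 1776 CPM of Mef2c and 740.1 CPM of Mef2a. The plot of make-up and detection shows both readings.

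**Figure D4:**
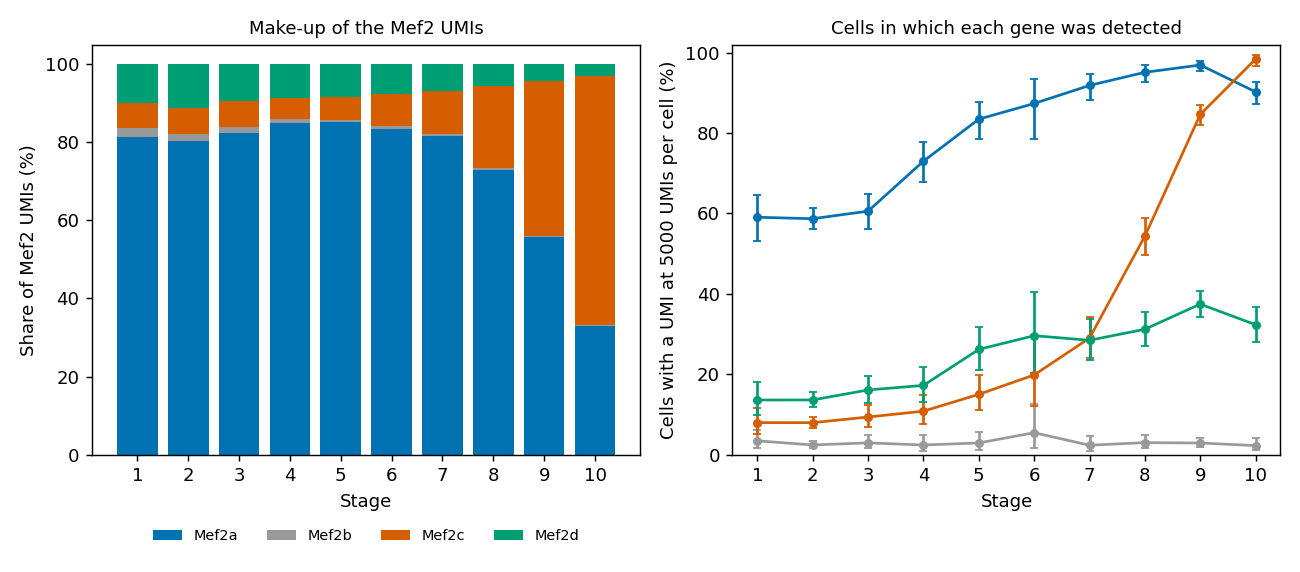
Left, share of all Mef2 UMIs (%) taken by each member at each stage of the path; right, share of cells (%) with a UMI of each member after thinning to 5000 UMIs, with exact 95% intervals. Mef2c goes from 6.41% to 63.9% of the UMIs and from 7.97% to 98.4% of the cells, and Mef2a is in most cells from stage 1 on.

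Among undifferentiated cells (stage 1), Mef2a was lower in those that were cycling, and no difference was resolved for the others. Mef2a was 198 CPM (178 to 220) in 182 cells with Mki67+Top2a of at least 100 CPM and 332 CPM (294 to 376) in 115 cells with none. All 4 files had it lower in cycling cells, by log2 ratios between -0.96 and -0.61, with a value of -0.75 over the files (-0.99 to -0.52). Mef2d was 28.5 and 34.4 CPM, a log2 ratio of -0.28 (-0.97 to 0.46). Mef2c was 19.0 and 19.7 CPM, and had too few counts for a call. None of the 2 members with enough counts was called, where 5.64% of 5871 genes were called higher and 0.715% lower. Cycling cells at stage 9 also had less of these genes: 845 against 1414 CPM of Mef2a, 702 against 990 CPM of Mef2c and 75.1 against 105 CPM of Mef2d in 90 cycling and 784 other cells. Their intervals did not overlap, and the cycling cells had more UMIs (median 16991 against 11464).

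Pax7 marks muscle stem cells. In stage 1, Mef2a was 261 CPM in the 301 cells with a Pax7 UMI and 154 CPM in the 56 without, a log2 ratio of 0.80 (0.38 to 1.19). The single files ranged from 0.41 to 1.29. Intervals of the ratios of Mef2c (-0.48 to 2.88) and Mef2d (-0.39 to 1.98) included 0, and no member was called, where 4.87% of 6470 genes were called higher and 0.0309% lower. The median log2 ratio of all those genes was 0.31, and 74.6% of them lay below Mef2a, so part of the Mef2a difference was shared by most genes. Of the Pax7-negative cells 44.6% had little Malat1, against 8.97% of the Pax7-positive ones. The part of this in the Mef2a value was not tested.

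The Mef2 levels also moved with Malat1, an abundant nuclear RNA. The 467 kept cells under 1000 CPM of Malat1 had 134 CPM of Mef2a (124 to 146), against 687 CPM (681 to 694) in the other 5014. Mef2c was 114 against 405 CPM and Mef2d 24.5 against 61.2 CPM. The Malat1-poor cells had the lower mean for all 3 genes at every stage, with intervals that overlapped at some stages for Mef2c and Mef2d. At stage 10 they had 297 against 965 CPM of Mef2a and 1221 against 1838 CPM of Mef2c. They were 14.6% of stage 1 and 5.39% of stage 10. Without them the order of the members was as above, with 55.6% of the rise by stage 6 for Mef2a, 65.0% for Mef2d and 3.64% for Mef2c. Their part in the levels was not tested beyond that. The 463 barcodes left out for few genes or many mitochondrial UMIs (median 40.9%) went the other way. Per 1000000 non-mitochondrial UMIs they had 1983 CPM of Mef2a against 676 CPM in kept cells, 1356 against 400.2 CPM of Mef2c and 164 against 61.0 CPM of Mef2d.

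**Figure D5:**
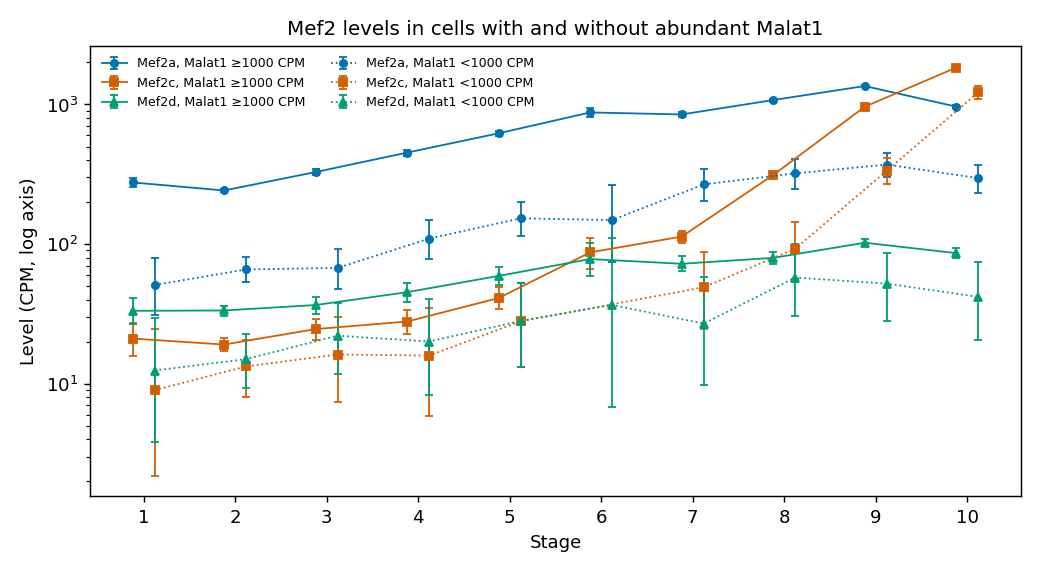
Levels of Mef2a, Mef2c and Mef2d (CPM, log axis) over the 10 stages in cells with at least 1000 CPM of Malat1 (solid) and under it (dotted), with 95% Poisson intervals; a value of 0 (Mef2c in the 10 Malat1-poor cells of stage 6) is not drawn. Dotted lines run below solid ones, and the Mef2c value is above the Mef2a value at stage 10 in both.

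Genes that overlap the members were looked at because the sources used here do not give how reads over overlapping genes or strands were counted. Lysmd4 lies over part of Mef2a on the opposite strand, and stood at 15.8 CPM at stage 1, 66.6 CPM at stage 6, 86.2 CPM at stage 9 and 47.0 CPM at stage 10. It therefore moved with Mef2a at a far lower level, and its part in the Mef2a counts was not tested. The antisense gene 1700113A16Rik at the end of Mef2d was at most 3.07 CPM in those stages. Borcs8 lies on the same strand over the start of the Mef2b gene in GENCODE M21, and ends before the RefSeq start given above. It stood at 33.7 CPM over all cells, above Mef2b itself, so the Mef2b level is uncertain.

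Genes that act on MEF2 proteins were described from lists by how many were called. Over all genes tested, 3.57% were higher and 4.29% lower with Myog, and 7.12% were higher and 16.1% lower across the sarcomere genes. Of 9 co-activators with enough counts, none was called with Myog, and the widest log2 ratios were those of the acetyltransferase Kat2b (-0.83) and the scaffold Akap6 (0.83). Across the sarcomere genes 2 of 9 were higher and 2 lower, beside 7.12% and 16.1% of all genes. Akap6 went from 98.2 to 336 CPM (log2 ratio 1.78) and the TEAD cofactor Vgll2 from 9.58 to 29.2 CPM (1.60), while Kat2b went from 10.2 to 3.23 CPM (-1.70) and Ncoa2, a nuclear receptor co-activator, from 89.0 to 35.1 CPM (-1.34). The list medians were -0.03 and -0.67, beside -0.04 and -0.43 for all genes.

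Of 7 repressors with enough counts, the class IIa deacetylase gene Hdac7 was called lower with Myog, from 20.7 to 5.60 CPM (log2 ratio -1.93). Across the sarcomere genes Hdac7 had too few counts and Hdac9 had enough, unlike with Myog. There 1 of 7 was higher and 2 lower, beside 7.12% and 16.1% of all genes, which is close in so short a list. Among the latter, Hdac4, of the same class, went from 30.9 to 13.1 CPM (-1.23). Hdac9, also of that class, was at 0.678 CPM, on average under 3 counts per file, and at 19.3 CPM at stage 10. It was the gene called higher, and it passed the count minimum only through stage 10. Hdac5 was at 21.4 and 15.7 CPM and was not called. The list medians were -0.11 with Myog and -0.43 across the sarcomere genes, beside -0.04 and -0.43 for all genes.

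Of the kinases and phosphatases upstream of MEF2, 1 of 12 was lower with Myog (4.29% of all genes) and 2 of 14 were higher across the sarcomere genes (7.12% of all genes). The list medians were -0.26 and -0.21, beside -0.04 and -0.43 for all genes. Camk2d, a calcium/calmodulin-dependent kinase, was the gene called in both, from 126 to 46.1 CPM with Myog (log2 ratio -1.44) and from 46.1 to 153 CPM across the sarcomere genes (1.73). Camk2a, of the same family, went from 1.52 to 14.2 CPM across the sarcomere genes (3.33). Camk2a had too few counts with Myog, and passed the count minimum across the sarcomere genes only through the last stage. The filter made its call likely, so Camk2a adds no support to the count of genes called higher. Sik1, a kinase that phosphorylates class II deacetylases, stood at 31.6 and 73.0 CPM with Myog (1.21), but not at 2-fold in every file. The p38 kinase gene Mapk14 stood at 50.8 and 28.2 CPM (-0.85) and was not called.

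Of genes known as MEF2 targets, 6 of 13 were higher with Myog and 1 lower, beside 3.57% and 4.29% of all genes. Across the sarcomere genes 19 of 21 were higher and none lower, beside 7.12% and 16.1%. The list medians were 0.58 and 3.57, against -0.04 and -0.43 for all genes. The genes of the 21 that were not among the 13 passed the count minimum only through stage 10. All of them were called higher, which the filter made likely, so they add no support to that count or median. With Myog, the myoglobin gene Mb went from 6.35 to 50.7 CPM (log2 ratio 3.02), the leiomodin gene Lmod3 from 9.92 to 70.8 CPM (2.84) and Smyd1, a muscle methyltransferase gene, from 33.4 to 118 CPM (1.83). Klf4, a zinc-finger factor, went from 15.3 to 4.63 CPM (-1.79) with Myog and from 4.63 to 60.3 CPM (3.77) across the sarcomere genes. Ckm went from 3.26 to 246 CPM (6.26) and the non-coding RNA gene Meg3 from 15.5 to 534 CPM (5.12) in the latter. Myoz2, a Z-disc gene, and Xirp2, an actin-binding gene, were at 0.118 and 0.306 CPM, on average under 3 counts per file, and at 87.1 and 36.8 CPM at stage 10. The list holds many sarcomere genes, which move with the axis that defines the groups, and it was drawn up with earlier results of these data known.

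Of the bHLH partners, Myod1 went from 284 to 781 CPM with Myog (log2 ratio 1.46) and was at 436 CPM at stage 10. Myf5 went from 98.7 to 24.7 CPM (-2.01), and Myog itself defines the groups. Across the sarcomere genes, Myf6 went from 2.92 to 33.3 CPM (3.61) and Tcf3, the E-protein gene, from 32.7 to 9.37 CPM (-1.81). Myf6 passed the count minimum only through stage 10. Leaving out Myog, 1 of 5 was higher and 1 lower with Myog, beside 3.57% and 4.29% of all genes. Across the sarcomere genes 1 of 7 was higher and 1 lower, Myog included, beside 7.12% and 16.1%.

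Across the 10 stages, the profiles of Mef2a and Mef2d were the most alike of the members (Pearson r 0.993 on log2(CPM + 1)), and that of Mef2c was less like either (0.861 and 0.883). Stages share libraries and cells of neighbouring levels, so these values describe the curves and are given with no p. Among 8031 genes that differed at least 2-fold over the stages, Atf6, a factor of the unfolded protein response, was most like Mef2a (0.997), followed by Inpp4b, Mfap1b, Samd8 and Sntb1. The genes most like Mef2c were Gm14635 (0.999), Ppargc1a, a co-activator of mitochondrial genes (0.998), the small heat shock protein gene Hspb3, the dystrophin gene Dmd and the muscle LIM protein gene Csrp3. Those most like Mef2d were the Mediator subunit gene Med28 (0.996), Top1, Enah, Ralgps2 and Inpp4b. Many genes had such curves: 291 had an r above 0.95 with Mef2a, 291 with Mef2c and 321 with Mef2d. For Mef2b, Mon1a (0.957), Ezh1, Fam71e1, Elmod2 and Tiparp came first, on a curve whose stages overlapped and with 3 genes above 0.95.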

How the data were processed

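Single-cell libraries of 1 group were analysed, from cultured muscle stem cells sorted for high MyoD-tdTomato, in 4 deposited files that hold the same cells. Per the file headers, the authors' deposited matrices come from Cell Ranger 7.1.0, and they hold whole UMI counts that were not normalized. The submitters' processing notes name Cell Ranger 3.1.0 and both mm10 and GRCm39, without roles, so the build of the counts is not settled and gene positions come from GENCODE M21 (GRCm38), which holds 32158 of the 32285 gene identifiers (99.6%). Whether intronic or antisense reads were counted is not given in the sources used here.

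Counts were summed over cells in each file, divided by the summed UMIs and averaged over files, with Python 3.11.15, numpy 2.4.6, scipy 1.17.1 and pandas 2.3.3. Log2 ratios have no pseudocount, and a side at 0 was set to 3 counts. The count table step was tested on simulated data. No doublet caller was run, and leaving out the 5% of cells with the most UMIs stood in for it. The 4 files count as 1 sample, so differences between cells were described by counting intervals and by calls of at least 2-fold in every file, and no count model was used as a test. Alternatives were the cell filters, the limits of the groups, Actc1+Mylpf as sarcomere genes, bins taken from other files than the levels, thinning, cells without Malat1, TMM factors (edgeR 4.0.16), median-ratio size factors (DESeq2 1.42.0), the count minimum and each file left out. Members and gene lists were chosen with earlier results of these data known. Named genes were the landmarks, up to 4 of each list with the widest log2 ratio in each comparison, and the 5 most alike in profile; Hdac5 was added after its value was seen. Protein sequences were not used here. Some genes of the lists are not reported here by name.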

Additional observations from a re-analysis of the deposited data

Results flagged for a closer look

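For 4 of the 60 Mef2 values checked between files, a single file lay farther from the other 3 than Dixon's 95% limit allows, which chance gives in about 5%. The Mef2c log2 ratio with Myog was 1.12 in replicate 2 and 1.32 to 1.33 in the others. The Mef2d log2 ratio with Myog was 1.22 in replicate 3 and 0.84 to 0.90 in the others. The Mef2a log2 ratio of stage 10 over stage 9 was -0.53 in replicate 1, against -0.50 in the others. The Mef2a level at stage 9 was 1349 CPM in replicate 1 and 1324 to 1327 CPM in the others.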

How the results depend on the processing

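No paired analysis was possible because the samples form 1 group, the files hold the same cells and no result comes from a test. In the alternatives run, the ratios of Mef2a, Mef2c and Mef2d in the 3 comparisons along the path kept their direction, as did the Mef2a ratio by cycling. By cycling the Mef2d ratio ran from -0.47 to 0.07 and that of Mef2c from -0.28 to 0.05 over alternatives other than leaving out a file. Leaving out each file in turn, with bins redrawn from the remaining files, moved no value beyond its counting interval. The log2 ratio with Myog ran from 1.33 to 1.38 for Mef2a, always above the 1.32 of all files. It ran from 1.24 to 1.28 for Mef2c and from 0.88 to 0.99 for Mef2d, and that of Mef2c across the sarcomere genes from 5.20 to 5.37. Genes called with Myog were then 337 to 348 higher and 471 to 492 lower, with 2-fold asked of fewer files.

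Values that moved beyond their counting interval follow, and the cause was not tested. With TMM factors the log2 ratios across the sarcomere genes were 1.07 (Mef2a), 5.73 (Mef2c) and 0.97 (Mef2d), those of stage 10 over stage 9 were -0.32, 1.12 and -0.078, and the percent of the rise by stage 6 was 43.3% for Mef2a. With median-ratio size factors the same were 1.07, 5.74 and 0.98, then -0.30, 1.14 and -0.054, and 44.7%. With Actc1+Mylpf as sarcomere genes, Mef2a was 1.89 with Myog, 0.11 across the sarcomere genes and -0.33 for stage 10 over 9, Mef2d was 1.38 and 0.13 in the first 2, and Mef2c was 1.46 in the last. With Myog of at least 3000 CPM, Mef2a was 1.70, 0.36 and -0.39 in these 3 comparisons, Mef2c 2.0, 4.51 and 0.85, and Mef2d 0.21 across the sarcomere genes. With Acta1+Myh3 under 100 CPM, Mef2a was 1.18 and Mef2c 0.85 with Myog, and Mef2c 5.65 across the sarcomere genes.

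In non-cycling cells (added after the data were seen) Mef2c was 1.73 with Myog, Mef2a 0.25, Mef2c 4.77 and Mef2d 0.26 across the sarcomere genes, and Mef2a -0.58 and Mef2c 0.89 for stage 10 over 9. With a last stage from 20000 CPM (also added), stage 10 over 9 gave -1.19 (Mef2a), 1.05 (Mef2c) and -0.61 (Mef2d). With a stricter filter on cells (2000 genes, 5% mitochondrial UMIs), Mef2a was 0.69 across the sarcomere genes and -0.43 for stage 10 over 9, Mef2c was 1.01 in the latter, and the percent of its rise by stage 6 was 2.21%. With bins from replicates 1 and 2 and levels from 3 and 4, Mef2a was 1.49 with Myog and had 58.4% of its rise by stage 6. Thinned to 5000 UMIs, Mef2a was 1.48 with Myog and 0.49 across the sarcomere genes, and without Malat1-poor cells 0.52 in the latter. The log2 ratio of the highest over the first stage (2.42 for Mef2a, 6.53 for Mef2c) was 2.72 and 7.08 with TMM factors and 2.73 and 7.08 with size factors, and for Mef2a 2.53 with the split replicates and 2.29 without Malat1-poor cells.

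Genes called with Myog (314 higher, 377 lower) were 183 and 227 with Acta1+Myh3 under 100 CPM. The lower ones were 572 with Myog of at least 3000 CPM and 789 with a count minimum of 1. Across the sarcomere genes (639 and 1449) they were 972 and 2475 with a count minimum of 1, and the lower ones 470 with Myog of at least 3000 CPM. The percent of the rise is not given with Actc1+Mylpf or the 100 CPM limit, which leave 15 and 31 cells in stage 6. Depth limits Mef2b, at 0.0643 UMIs per cell, and the interval of each of its ratios includes 0.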
